A study of Mus musculus with 12 samples.

Results

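Collagen and laminin chains were followed in whole fetal mouse gonads. The members were all genes that the array names as a numbered collagen chain (*Col* with a type and an alpha chain number) or a numbered laminin chain (*Lama*, *Lamb* or *Lamc*), and that had a probe well above background on all 3 arrays of at least 1 of the 4 groups. The array carried 52 such genes, of which 49 passed, 38 collagens and 11 laminins, out of 18666 genes that passed the same filter and 28867 on the array. Gonads were collected at E14.5 on a mixed background after tamoxifen on E9.5 and E10.5. Each array held 1 RNA sample, for which the methods do not state the number of gonads.

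Each of 4 groups had 3 arrays, and these were control testes and, as ovaries, controls, *Smad4 (Stella)* mutants and *Smad4* *Stra8* mutants (DKO). All 3 control testes were *Smad4* Flox/+, carried the *StellaMerCreMer* transgene and were *Stra8*+/-. Control ovary 1 had the genotype of the testes, control ovary 2 was *Smad4* Flox/+ and *Stra8*+/- without the transgene in its label, and control ovary 3 was *Smad4* Flox/Flox and *Stra8*+/-, again without it. *Smad4 (Stella)* ovaries were *Smad4* flox/flox with MerCreMer and *Stra8*+/-, and DKO ovaries were *Smad4* flox/flox with MerCreMer and *Stra8*-/-. Every group therefore carried at least 1 null allele of *Stra8*. The Cre is driven by *Stella*, a germ cell gene, and its efficiency is variable, so *Smad4* deletion was aimed at germ cells and may be incomplete, whereas the *Stra8* null allele was in all cells of the DKO embryos.

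Collagens are trimers of alpha chains wound into a rope-like helix, and laminins are cross-shaped trimers of an alpha, a beta and a gamma chain. Laminins and collagen IV form the sheets of the basement membrane, fibrillar collagens form the cables of the connective tissue between cells, and the smaller collagen classes decorate or link them. In the fetal testis, Sertoli cells and the peritubular cells around them lay down a basement membrane that encloses the testis cords, while at this stage the ovary has loose ovigerous cords. RNA was measured in whole gonads, so that a larger number of matrix-making cells and more RNA per cell could not be told apart.

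Promoter sequence was printed for the members the comparisons turned on, namely the 3 called genes with the largest testis excess that RefSeq promoters were at hand for, the testis-low gene with such an entry, and both genes called in DKO ovaries. The following are the 250 bases before the annotated start on GRCm38.p6, read 5′ to 3′ on the strand of the gene, at chr16:57754738-57754987 (- strand, *Col8a1*), chr10:27616943-27617192 (-, *Lama2*), chr10:61979109-61979358 (-, *Col13a1*), chrX:141475169-141475418 (+, *Col4a5*), chr9:108479612-108479861 (+, *Lamb2*) and chr2:180986285-180986534 (+, *Col20a1*). Capitals mark, on either strand, ACAAT (the core bound by SOX factors), AGGTCA (a core bound by NR5A1), CCAAT and GGGCGG (the GC box).
Col8a1: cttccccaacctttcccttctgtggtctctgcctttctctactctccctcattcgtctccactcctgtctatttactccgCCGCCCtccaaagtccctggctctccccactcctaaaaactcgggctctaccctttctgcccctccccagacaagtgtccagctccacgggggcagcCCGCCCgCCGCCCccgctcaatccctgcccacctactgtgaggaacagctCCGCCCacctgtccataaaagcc
Lama2: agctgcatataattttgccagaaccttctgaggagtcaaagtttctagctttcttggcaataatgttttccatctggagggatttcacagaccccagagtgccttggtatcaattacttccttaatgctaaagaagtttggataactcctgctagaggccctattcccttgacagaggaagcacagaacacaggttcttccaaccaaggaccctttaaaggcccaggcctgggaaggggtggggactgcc
Col13a1: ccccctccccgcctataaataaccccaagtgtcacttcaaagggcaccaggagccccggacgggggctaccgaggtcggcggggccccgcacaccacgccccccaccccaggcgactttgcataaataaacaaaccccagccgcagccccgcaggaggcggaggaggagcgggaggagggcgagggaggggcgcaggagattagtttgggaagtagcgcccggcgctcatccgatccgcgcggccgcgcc
Col4a5: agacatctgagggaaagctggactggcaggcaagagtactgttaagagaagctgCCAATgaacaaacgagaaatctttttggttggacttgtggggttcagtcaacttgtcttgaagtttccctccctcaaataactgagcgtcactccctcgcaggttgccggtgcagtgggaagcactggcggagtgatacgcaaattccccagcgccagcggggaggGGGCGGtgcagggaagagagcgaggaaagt
Lamb2: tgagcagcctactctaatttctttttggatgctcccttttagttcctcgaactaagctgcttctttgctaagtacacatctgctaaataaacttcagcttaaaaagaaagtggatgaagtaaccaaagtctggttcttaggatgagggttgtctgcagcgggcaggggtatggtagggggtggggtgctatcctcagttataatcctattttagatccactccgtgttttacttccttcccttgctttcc
Col20a1: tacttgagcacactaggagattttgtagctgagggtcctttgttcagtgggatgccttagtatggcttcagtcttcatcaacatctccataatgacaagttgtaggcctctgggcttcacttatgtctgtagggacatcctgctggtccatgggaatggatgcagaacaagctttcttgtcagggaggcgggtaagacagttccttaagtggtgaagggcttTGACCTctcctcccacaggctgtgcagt

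The 3 testis-high promoters had little lettering in common. *Col8a1* held 4 GC boxes, *Lama2* and *Col13a1* held none of the 4 motifs, and *Col4a5* held 1 CCAAT and 1 GC box. *Lamb2* had none and *Col20a1* had 1 AGGTCA. Among the 35 members with an entry, ACAAT occurred in 1 (2.9%) against 27.7% of 32841 promoters of all genes, AGGTCA in 7 (20.0% against 14%), CCAAT in 14 (40.0% against 33.9%) and GGGCGG in 22 (62.9% against 32.7%). The units differ, because a member was counted once if any of its promoters matched, whereas the shares of all genes count single promoters. The median GC content was 60.4% over the 39 promoters of members and 52.4% over all promoters. These shares describe letters only.

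A level is given as log2 of the processed intensity of a gene, averaged over its probes, relative to the 75th percentile of the array, so that differences between arrays are differences in log2. Levels were compared between arrays for the same gene and never between genes. Of the 49 members, 42 were well above background on all 12 arrays. *Col24a1*, *Col4a3* and *Col25a1* passed only through the testes, *Col6a6* only through the control ovaries and *Lamb3* only through the *Smad4 (Stella)* ovaries, whereas *Col9a1* and *Lamc3* passed in testes and 1 mutant group. The genes that did not pass were *Col10a1* and *Col28a1*, above background on no array, and *Col19a1*, whose best probe was above background on 0 testis, 2 control ovary, 2 *Smad4 (Stella)* and 1 DKO array. At the same edge, *Col4a3* had 3, 1, 1 and 0 arrays above background in that order.

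Some libraries stood apart. The 75th percentile of intensity ran from 476 in control ovary 1 to 997 in *Smad4 (Stella)* ovary 1, and the share of spots well above background from 59.3% to 71.0%, lowest in control ovary 1. Control ovary 1 was hybridised on the slide that held the 3 testes, control ovaries 2 and 3 shared a slide with DKO ovaries 1 and 2, and the *Smad4 (Stella)* ovaries shared one with DKO ovary 3. Summed skeletal muscle markers were at 4.89 in control ovary 3 and between -0.50 and 1.03 on the other 11 arrays. The median level of the 11 fibrillar collagens was -2.71 in control ovary 1, against -1.89 and -2.05 in the other control ovaries. Genotype and animal differ between all 3 control ovaries, and control ovary 1 differs from the others in slide as well. These differences cannot be told apart.

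**Figure D1:**
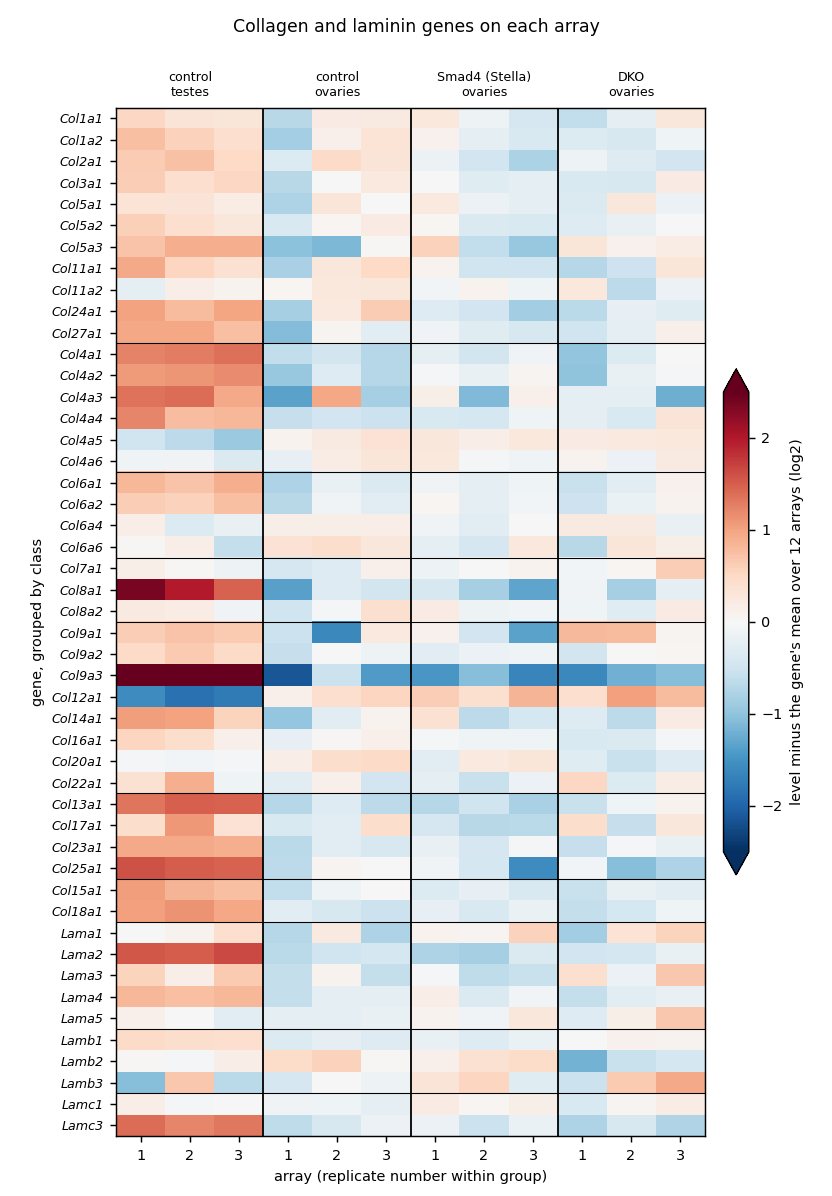
Level of 48 of the 49 collagen and laminin genes (rows, by class) on each of the 12 arrays (columns), as the log2 difference from the mean of that gene. Red marks arrays above and blue marks arrays below that mean; of all 49 genes, 30 had all 3 testis arrays above all 3 control ovary arrays, and *Col12a1* and *Col4a5* are among the 4 with the reverse.

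Control testes differed from control ovaries in 27 of the 49 members. Of these, 25 were higher in testes, against 17.2% of all genes tested, and 2 were lower, *Col12a1* and *Col4a5*, against 16.7% of all genes. Genes were called at an adjusted p under 0.05 in limma with a change of at least 1.5-fold. The median log2 fold change was 0.71 over the members and 0.02 over all genes. Counting arrays alone, 30 members had every testis array above every control ovary array (29.9% of all genes) and 4 had the reverse order (28.4% of all genes). The 25 include *Col24a1*, *Col4a3* and *Col25a1*, which passed the filter only through the testes. Of the 42 members well above background throughout, 20 were called higher and 2 lower.

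The largest difference was in *Col9a3*, a chain of collagen IX, which decorates fibrils and is best known from cartilage (probe at chr2:180350553-180351135, mm9, the build of every probe position given here). Its level was 1.60, 1.83 and 1.72 in testes and -4.47, -2.87 and -3.74 in control ovaries. It was -3.78, -3.39 and -3.97 in *Smad4 (Stella)* ovaries and -3.93, -3.53 and -3.39 in DKO ovaries. The testes lay far above the 3 ovary groups, which overlapped one another. The log2 fold change between testes and ovaries was 5.41 ± 0.33 (SE, 3 arrays a group, limma adjusted p = 7.56e-07), or 42.6-fold, the 47th highest of 18666 genes. The partner chains of collagen IX differed less. *Col9a2* was 1.2, 1.38 and 1.2 in testes and 0.15, 0.71 and 0.60 in control ovaries, and *Col9a1* was among the calls but above background on only 1 control ovary array.

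Collagen IV, the network of the basement membrane, is encoded by 3 pairs of genes that lie head to head on a chromosome. *Col4a1* (probes at chr8:11199009-11199068 and chr8:11199846-11201680) was 3.07, 3.10 and 3.19 in testes and 1.21, 1.37 and 1.1 in the ovary controls, or a difference of 1.89 ± 0.21 (adjusted p = 4.12e-05). Its neighbour *Col4a2* (chr8:11448840-11448899 and chr8:11448180-11448239) was 2.11, 2.15 and 2.23 in testes and 0.10, 0.72 and 0.34 in control ovaries, with a change of 1.78 ± 0.24 (adjusted p = 0.00014). These chains form the common trimer of basement membranes, and for both the testes lay more than 1 log2 unit above each control ovary. *Col4a4* moved in the same direction (1.47 ± 0.19, adjusted p = 0.000109), with testes at 0.17, -0.27 and -0.21 and control ovaries at -1.62, -1.52 and -1.57. Its partner *Col4a3* was at -4.61, -4.56 and -5.01 in testes and -7.3, -5.0 and -6.8 in control ovaries, of which 1 was above background, and control ovary 2 overlapped the testes. It was among the calls, but it passed the filter only through the testes, where it is high.

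Of the X-linked pair, 1 was lower in testes and 1 was not called. *Col4a5* (chrX:138122995-138123054) was -1.56, -1.72 and -1.99 in testes and -0.98, -0.84 and -0.70 in control ovaries, and it fell by 0.91 ± 0.12 on the log2 scale (adjusted p = 0.000125). The groups did not overlap. *Col4a6* was -1.67, -1.66 and -1.92 in testes and -1.77, -1.37 and -1.26 in control ovaries, with overlap and an adjusted p of 0.179. The RefSeq starts of this pair lie 1343 bases apart on GRCm38.p6.

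Among the 11 laminin chains, 5 were higher in testes and 0 lower. Those called were *Lama2*, *Lama3*, *Lama4*, *Lamb1* and *Lamc3*. *Lama2* (chr10:26704229-26704288 and chr10:26710714-26712724), the alpha chain of muscle, nerve and mesenchymal basement membranes, was -0.98, -1.01 and -0.88 in testes and -3.19, -3.03 and -2.96 in control ovaries. This gave 2.11 ± 0.14 (adjusted p = 1.15e-06), with little spread in either group. *Lama4*, an alpha chain of vessel walls and mesenchyme, was -0.01, -0.09 and -0.01 in testes and -1.44, -1.07 and -1.06 in control ovaries. *Lamb1*, the beta chain of embryonic laminins, was 3.24, 3.20 and 3.18 in testes and 2.41, 2.54 and 2.44 in control ovaries.

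*Lamc3* was also higher in testes (1.70 ± 0.16, adjusted p = 1.37e-05), at -4.68, -4.87 and -4.77 against -6.71, -6.48 and -6.23. Its probes gave differences of 2.53 and 0.86, the first from a probe at -7.43 in control ovaries. The gene was above background on 2 control ovary arrays. Its call was lost with another background correction (normexp) and with the brightest probe, and its lowest log2 fold change over the alternatives was 0.48. *Lama3*, an alpha chain of epithelial basement membranes, was called higher, but its probes had opposite signs, 1.89 and -0.23, the only member with several probes of which this was true. The probe with the negative sign was the dimmer, at -5.43 in testes and -5.19 in control ovaries, against -1.89 and -3.78 for the other. The broadly used gamma chain *Lamc1* was 3.59, 3.36 and 3.43 in testes and 3.34, 3.31 and 3.20 in control ovaries and was not called (adjusted p = 0.342). Neither *Lama1* (adjusted p = 0.218), *Lama5* (0.575), *Lamb2* (0.229) nor *Lamb3* (0.773) was called.

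**Figure D2:**
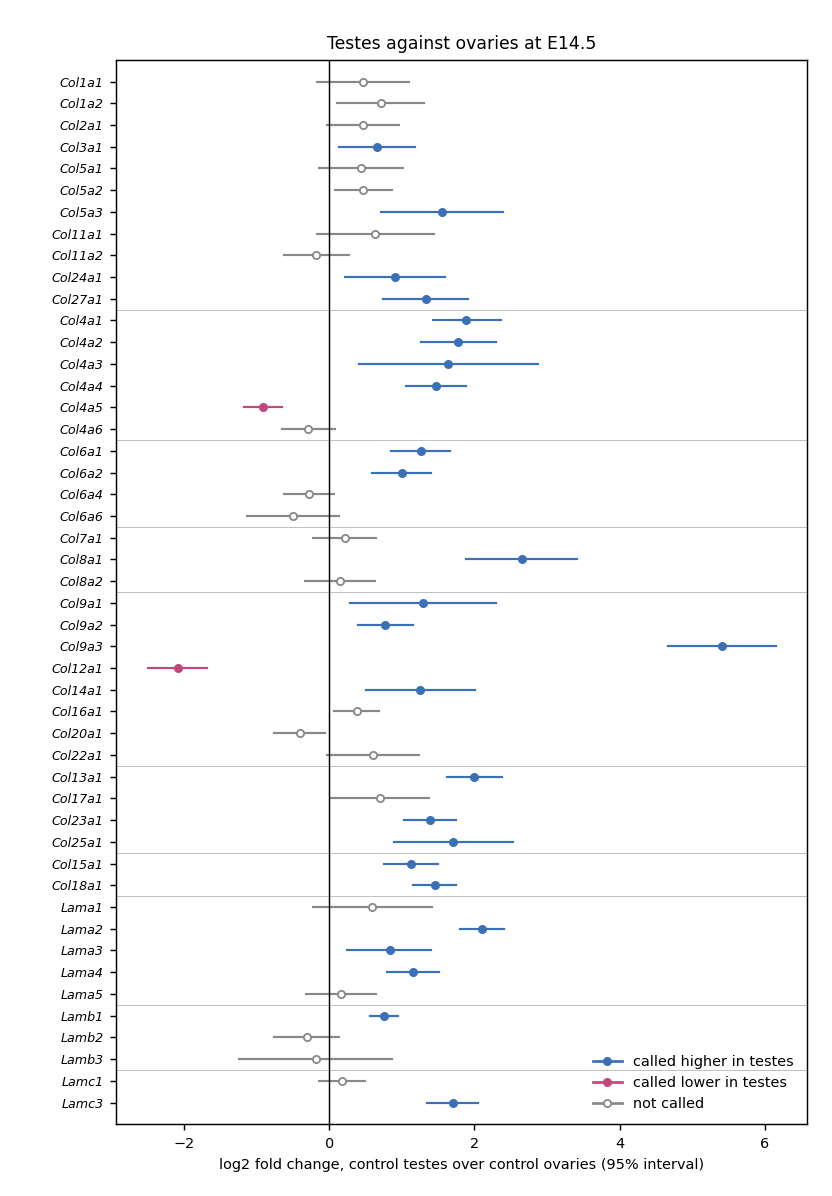
Log2 fold change of 48 members between control testes and control ovaries (x axis), with the 95% interval of limma, genes in the class order of the heat map. Filled points were called; *Col9a3* at 5.41 stands alone on the right, and *Col12a1* at -2.09 is the lowest.

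Fibrillar collagens were higher in testes in 4 of 11 members and lower in 0, with a median log2 fold change of 0.63. The called ones were minor or regulatory chains and *Col3a1*. *Col5a3*, a minor collagen V chain, was -2.5, -2.31 and -2.31 in testes and -4.24, -4.34 and -3.19 in control ovaries (1.55 ± 0.38, adjusted p = 0.00649). *Col27a1*, a fibrillar collagen of cartilage and other tissues, was -1.46, -1.46 and -1.67 against -3.51, -2.36 and -2.69 (1.33 ± 0.26, adjusted p = 0.00188).

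The chains of collagen I, the main cable of connective tissue, were not called. *Col1a2* was 7.24, 7.07 and 6.91 in testes and 5.64, 6.61 and 6.84 in control ovaries, with all testes above all ovaries but an adjusted p of 0.0504. Control ovary 1 was the low array, and on its slide the testes exceeded it by 1.43. *Col1a1* was 2.04, 1.85 and 1.82 in testes against 0.84, 1.72 and 1.75 (adjusted p = 0.209). Here too the ovaries other than control ovary 1 came close to the testes. *Col3a1*, the chain of soft connective tissue fibrils, was 2.17, 1.99 and 2.09 in testes and 0.87, 1.58 and 1.8 in control ovaries, and was called with a small difference, 0.66 in log2. Its brighter probe differed by 0.39, under 1.5-fold, and its dimmer probe by 0.93, and the call was lost with the brightest probe. *Col24a1*, a minor fibrillar chain, was -3.53, -3.73 and -3.54 against -5.35, -4.28 and -3.89, and was also called, having passed the filter only through the testes. In each of these, and in *Col5a1*, *Col5a2*, *Col2a1* and *Col11a1*, control ovary 1 was the lowest control ovary.

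Among those fibrillar chains that were not called, *Col5a2* of collagen V passed the adjusted threshold (0.0476) with a change under 1.5-fold, at 1.48, 1.32 and 1.18 in testes and 0.51, 0.95 and 1.1 in ovaries. *Col5a1* had an adjusted p of 0.19, *Col2a1* of 0.109, *Col11a1* of 0.177 and *Col11a2* of 0.486. *Col11a2*, a cartilage fibril chain, was the fibrillar member with a negative difference (-0.18), with overlapping groups.

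Of the other network and filament collagens, *Col8a1*, a short chain of vessel walls and stroma, had the second largest rise. It was -1.15, -1.54 and -2.04 in testes and -4.87, -3.84 and -3.98 in control ovaries (chr16:57627033-57627092 and chr16:57624471-57624530, 2.65 ± 0.34, adjusted p = 0.000119). Its paralogue *Col8a2* was 1.22, 1.18 and 0.92 against 0.50, 0.98 and 1.41, with overlap. *Col7a1*, which anchors epithelium to stroma, was 0.93, 0.82 and 0.66 against 0.37, 0.47 and 0.92, also with overlap. *Col6a1* and *Col6a2*, which pair in the beaded filaments of collagen VI, were both called: *Col6a1* at 2.75, 2.63 and 2.83 against 1.15, 1.74 and 1.56, and *Col6a2* at 1.43, 1.39 and 1.57 against 0.12, 0.74 and 0.54. *Col6a4* and *Col6a6*, alternative chains of that filament, were not called, with log2 fold changes of -0.28 and -0.50.

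Of the 4 membrane-anchored collagens 3 were higher in testes, and so were both multiplexins, collagens of basement membrane zones. The remaining membrane-anchored chain, *Col17a1* of epithelial anchoring junctions, had a log2 fold change of 0.70 and was not called. *Col13a1*, found at cell adhesions, was -0.47, -0.32 and -0.33 in testes and -2.52, -2.14 and -2.46 in control ovaries (chr10:61301277-61301336 and chr10:61330216-61330585, 2.0 ± 0.17, adjusted p = 6.78e-06). *Col23a1* was higher by 1.39 ± 0.16 (adjusted p = 5.45e-05). *Col25a1* was -4.49, -4.56 and -4.6 in testes and -6.72, -6.0 and -6.08 in control ovaries, of which 2 were above background. Since it passed the filter only through the testes, its call has no support beyond these levels.

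*Col18a1*, a basement membrane collagen whose end piece is endostatin, was 4.80, 4.88 and 4.73 in testes and 3.48, 3.37 and 3.23 in control ovaries (1.45 ± 0.13, adjusted p = 1.1e-05). *Col15a1*, its relative, was -1.90, -2.09 and -2.20 against -3.56, -3.06 and -2.93. In both genes the 2 groups were separate.

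The fibril-associated collagens held the extremes of both directions. *Col12a1*, a large fibril-associated chain of dense connective tissue (chr9:79447270-79447329 and chr9:79452328-79452387), was -3.91, -4.20 and -4.12 in testes and -2.22, -1.92 and -1.80 in control ovaries. It fell by 2.09 ± 0.18 on the log2 scale (adjusted p = 7.5e-06), 4.27-fold. Its close relative *Col14a1* was called in the opposite direction, at 3.34, 3.31 and 2.86 in testes and 1.32, 2.04 and 2.39 in control ovaries. *Col16a1* and *Col22a1* had log2 fold changes of 0.38 and 0.60 and were not called, nor was *Col20a1* (-0.41, adjusted p = 0.0516).

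**Figure D3:**
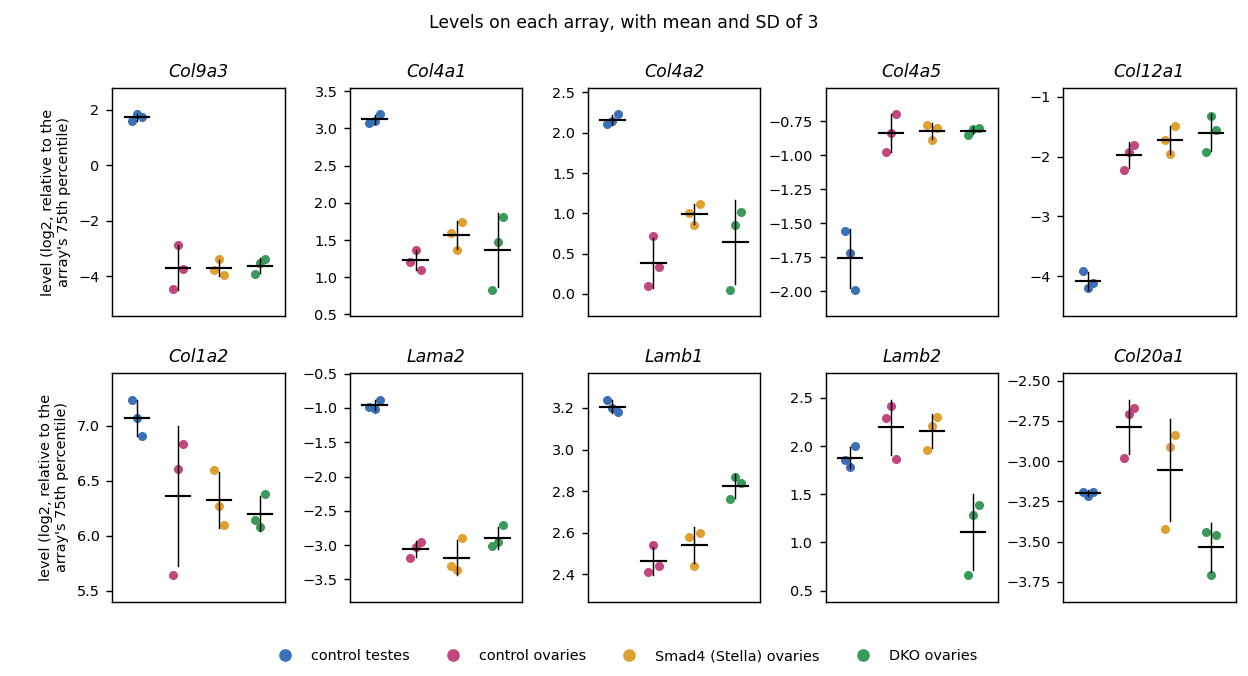
Levels of 10 members on each array (points), with the mean (bar) and SD of 3 arrays per group (line), in log2 relative to the 75th percentile of the array; each panel has its own y axis. *Col9a3*, *Col4a1*, *Col4a2*, *Lama2* and *Lamb1* are highest in testes, *Col4a5* and *Col12a1* lowest there, and *Lamb2* and *Col20a1* lowest in DKO ovaries.

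Control ovary 1 shared the slide of the testes, and against it all 27 calls kept their direction and a change of at least 1.5-fold. That array also entered the calls, so this is no independent check. Its median level over the members was the lowest of the control ovaries, -1.77 against -1.52 and -1.26. The model with slide as a block rests on that array alone for this contrast. Without control ovary 1 the members' median log2 fold change was 0.55, and 20 members were called higher and 2 lower. The count fell to 11 higher and 2 lower with another background correction (normexp). Over all 18666 genes 6339 were called in either direction, 6454 without control ovary 1 and 2649 with normexp. The calls that did not survive the loss of 1 array were *Col24a1*, *Col3a1*, *Col4a3*, *Col9a1* and *Lama3*. Without control ovary 1 these had adjusted p-values of 0.0742, 0.116, 0.114, 0.066 and 0.0715. Without control testis 1 the values were 0.0838, 0.096, 0.0776, 0.0749 and 0.0626 in that order. Without control testis 2, *Col24a1*, *Col3a1*, *Col4a3* and *Col9a1* were lost (0.0606, 0.0663, 0.0862 and 0.0904), and without control testis 3 all 5 were lost (0.0881, 0.086, 0.0537, 0.0847 and 0.0796). Without control ovary 2 *Col9a1* was lost (0.133), and without control ovary 3 *Col4a3* (0.10) and *Lama3* (0.077). Leaving out *Smad4 (Stella)* ovary 2 or 3 took *Col9a1* to 0.0518 and *Col3a1* to 0.0514.

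Genes that make, trim, bind or sit beside collagens and laminins were taken from a list of 86, of which 79 were tested. In testes 28 were higher and 6 lower, beside 17.2% and 16.7% of all genes, with a median log2 fold change of 0.37. Of the collagen enzymes and chaperones 13 of 28 were higher, 0 lower and 15 not called, with the lowest log2 fold change at -0.31. Among the higher was *Tll1*, a procollagen protease above background on 3 testis arrays and on 0 control ovary arrays, at least 1.38-fold higher. Among basement membrane partners 7 of 15 were higher and 3 lower. *Smoc2*, a calcium-binding matrix protein, was the highest (4.50 ± 0.54, adjusted p = 6.7e-05), followed by *Egflam*, a dystroglycan ligand (1.92 ± 0.19, adjusted p = 1.88e-05). *Papln* (-2.57 ± 0.19, adjusted p = 2.36e-06), *Npnt* (-1.93 ± 0.23, adjusted p = 6.67e-05), an integrin ligand, and *Frem2* (-1.39 ± 0.21, adjusted p = 0.000299) were lower in testes.

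Matrix proteases and inhibitors were higher in 6 of 18 and lower in 2. The gelatinase *Mmp9* (3.37 ± 0.35, adjusted p = 2.65e-05) and the aggrecanase *Adamts5* (3.29 ± 0.37, adjusted p = 4.16e-05) were higher, while *Adamts19* was lower (-3.00 ± 0.12, adjusted p = 6.12e-08). *Mmp9* was above background on only 1 control ovary array, at levels of -6.79, -6.47 and -6.2, so the size of its change is uncertain. Of 18 matrix receptors 2 were higher and 1 lower. The lower one was *Cd44*, the hyaluronan receptor (-3.05 ± 0.12, adjusted p = 5.34e-08).

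Cell type markers differed between the same testes and ovaries. In testes 7 of 8 Sertoli, 5 of 5 fetal Leydig, 4 of 6 peritubular and smooth muscle, 5 of 7 interstitial and 2 of 5 cartilage markers were higher. *Amh*, *Cbln4*, *Cyp11a1* and *Cnmd* are among these but passed the filter only through the testes, where they are high. In the same arrays 8 of 8 pregranulosa, 4 of 5 surface epithelium, 4 of 7 erythroid, 2 of 6 mesonephric tubule, 1 of 8 endothelial, 1 interstitial and 1 cartilage marker were lower. *Foxl2*, *Irx3* and *Matn3* are among these but passed only through ovary groups. Of all genes, 17.2% were called higher and 16.7% lower in testes. Mesonephric tubule markers had 1 higher, germ cell markers 3 higher and 1 lower of 6, and skeletal muscle and macrophage markers 0 of 6 and 0 of 7 in either direction. Summed levels were 5.70 to 5.86 in testes and 0.90 to 1.07 in control ovaries for Sertoli markers, 3.21 to 3.38 and 1.58 to 2.40 for peritubular markers, 4.92 to 5.15 and 4.11 to 4.38 for interstitial markers, and -0.04 to 0.25 and -1.28 to -1.23 for cartilage markers. Their part in the collagen and laminin differences was not tested.

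*Smad4 (Stella)* ovaries had no called member, 0 of 49 in limma against 0.279% of all genes, and the median log2 fold change was 0.02, beside -0.02 over all genes. With slide as a block, which rests on the DKO arrays that link the slides, the members' median moved to -0.46 and that of all genes to -0.04. At an unadjusted p under 0.05 in limma there were 2 members, *Col2a1* (adjusted p = 0.175) and *Col4a2* (adjusted p = 0.201). The methods' t-test without adjustment called 1, *Col4a2*, beside 812 of all 18666 genes. *Col4a2* was 1.01, 0.86 and 1.11 in *Smad4 (Stella)* ovaries, above the 3 control ovaries by a small margin. *Col4a1* was 1.59, 1.37 and 1.74, level with the highest control ovary or above. *Col2a1*, the main chain of cartilage fibrils, was -2.51, -2.84 and -3.17, and it overlapped the control ovaries at -2.71, -1.89 and -2.05. For 14 of the 49 members the 95% interval of the log2 fold change lay within a 1.5-fold change in either direction, so that for the others a change of that size was not excluded. The standard errors were between 0.09 and 0.56. No slide held both groups, and with slide as a block 0 members were called.

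DKO ovaries had 2 called members, both lower, 2 of 49 against 14.7% of all genes called in either direction and 7.94% called lower. The median log2 fold change was 0.08, beside 0 over all genes, and with slide as a block it was -0.17, beside -0.04. For 17 of the 49 members the 95% interval lay within a 1.5-fold change in either direction. For the others a change of that size was not excluded. *Lamb2*, the beta chain that replaces *Lamb1* in the mature basement membranes of kidney, muscle and nerve, was 0.66, 1.28 and 1.39 in DKO ovaries (chr9:108392189-108392248). It was 2.29, 2.42 and 1.87 in ovary controls, 1.96, 2.21 and 2.30 in *Smad4 (Stella)* ovaries and 1.86, 1.78 and 2.0 in control testes. Each DKO array lay below all 9 others.

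*Lamb2* fell by 1.08 ± 0.20 against control ovaries (adjusted p = 0.00346), 2.12-fold. Within the slide that held both groups, 2 DKO arrays and 2 control ovaries, it fell by 1.17. The call was lost with normexp (-1.02, adjusted p = 0.0594), with the unscaled deposited table (-0.90, adjusted p = 0.165) and by the methods' t-test after Benjamini-Hochberg adjustment (-1.08, adjusted p = 0.116). *Lamb1*, the alternative beta chain, was 2.76, 2.87 and 2.84 in DKO ovaries, above the control ovaries at 2.41, 2.54 and 2.44. Its log2 fold change of 0.36 had an adjusted p of 0.0117 but was under 1.5-fold. On the shared slide it was 0.33, and with slide as a block the adjusted p was 0.0539.

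*Col20a1*, a fibril-associated collagen, was -3.44, -3.71 and -3.46 in DKO ovaries, below the controls at -2.98, -2.71 and -2.67 (chr2:180752070-180752129). It fell by 0.75 ± 0.16 (adjusted p = 0.00647), 1.68-fold, and by 0.88 within the shared slide. Testes were at -3.19, -3.22 and -3.19 while *Smad4 (Stella)* ovaries were at -3.42, -2.91 and -2.84, the first below the control ovaries and above the DKO ovaries, the latter overlapping the control ovaries. The direction turned with normexp, to 0.12, where the median of all genes moved to 0.26.

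None of the 6 collagen IV chains was called in DKO ovaries. *Col4a1* was 0.83, 1.47 and 1.81, *Col4a2* was 0.05, 0.86 and 1.02, and *Col4a5* was -0.85, -0.81 and -0.80, each overlapping the control ovaries. *Col4a4* was -1.27, -1.43 and -0.72, with every DKO array above the control ovaries at -1.62, -1.52 and -1.57, and its adjusted p was 0.132. The 95% interval of the log2 fold change was -0.33 to 0.61 for *Col4a1*, -0.26 to 0.78 for *Col4a2*, 0.01 to 0.85 for *Col4a4* and -0.24 to 0.29 for *Col4a5*. For *Col9a3* it was -0.66 to 0.82 and for *Lama2* -0.14 to 0.47.

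*Col9a1* was -3.69, -3.71 and -4.43 in DKO ovaries, near the testes at -3.89, -3.79 and -3.85. Control ovaries were at -5.03, -6.11 and -4.26, the last within the DKO range. It was above background on 3 DKO arrays and 1 control ovary array, and its adjusted p was 0.0905. *Lama3* was -3.72, -4.26 and -3.45 in DKO ovaries, against -4.71, -4.04 and -4.71 in controls, with overlap (adjusted p = 0.0891). *Col5a3* was -2.92, -3.10 and -3.03, above each control ovary (adjusted p = 0.118). Each of these members was called in DKO ovaries under some alternative. Without control ovary 3, the array with muscle markers, *Col9a1* was called at 1.62 and *Col5a3* at 1.27. With the brightest probe of each gene, or with only probes well above background on every array, *Lama3* was called at 0.98. Without control ovary 2 or DKO ovary 2 it was called at 0.90.

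Other arrays moved the count too. Without control ovary 1, 4 members were lower in DKO ovaries, *Col2a1* (-0.71) and *Col24a1* (-0.84) joining *Lamb2* (-1.03) and *Col20a1* (-0.85). With slide as a block 5 were lower, *Col11a1* (-1.0), *Col1a2* (-0.62), *Col24a1* (-0.88), *Col20a1* (-0.88) and *Lamb2* (-1.17), and this fit compares DKO ovaries 1 and 2 with control ovaries 2 and 3. Over all 18666 genes 2869 were called without control ovary 1 and 2928 with slide as a block, in either direction. Without DKO ovary 1, *Col11a2* was lower (-0.60) and *Lama5* higher (0.62). Without *Smad4 (Stella)* ovary 1, *Col5a3* was called at 0.90.

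**Figure D4:**
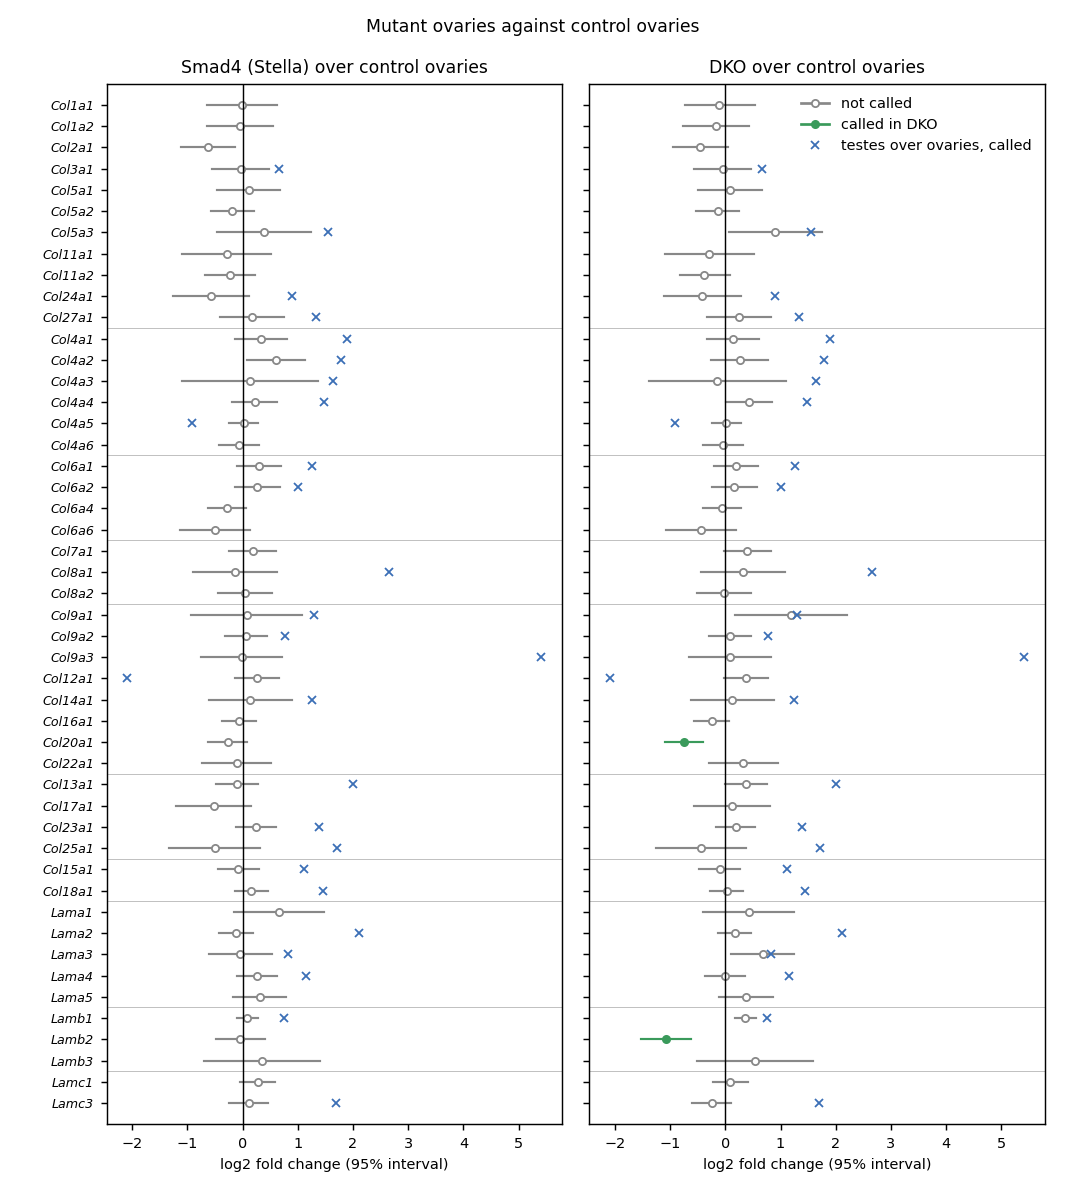
Log2 fold change of 48 members in *Smad4 (Stella)* ovaries (left) and DKO ovaries (right) against the same 3 control ovaries, with 95% intervals of limma; crosses give the testis difference of members called in testes, against those same control ovaries. The filled circles on the right are the called members, *Lamb2* (-1.08) and *Col20a1* (-0.75); no circle on the left is filled.

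DKO ovaries were also set against *Smad4 (Stella)* ovaries, a comparison of *Stra8*-/- with *Stra8*+/- on *Smad4* deletion. *Lamb2* alone was called, 1 of 49 against 8.42% of all genes in either direction and 4.02% called lower. It fell by 1.04 ± 0.20 (adjusted p = 0.009), and by 0.76 on the slide with DKO ovary 3 and the 3 *Smad4 (Stella)* ovaries. With slide as a block its adjusted p was 0.172. *Col20a1* was not called (-0.48, adjusted p = 0.0762), nor was *Lamb1* (0.29, adjusted p = 0.0562). For both genes the groups did not overlap. The 95% interval lay within a 1.5-fold change for 18 of the 49 members, and for the others such a change was not excluded. Without DKO ovary 1, *Col13a1* was also called (0.66), and without *Smad4 (Stella)* ovary 1 *Col20a1* was (-0.66).

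Other matrix genes were counted in the same way. In *Smad4 (Stella)* ovaries 1 of 79 was called, beside 0.279% of all genes, namely *Gp6*, a platelet collagen receptor, which fell by 1.01 ± 0.09 (adjusted p = 0.00882). In DKO ovaries 2 of 79 were called, beside 14.7% of all genes. *Pcolce2*, an enhancer of procollagen cleavage, was higher (1.08 ± 0.26, adjusted p = 0.0135) and *Npnt* was lower (-0.72 ± 0.23, adjusted p = 0.0481), and 0 were called (beside 8.42% of all genes) between DKO and *Smad4 (Stella)* ovaries. Beside these, 0 Sertoli, fetal Leydig, pregranulosa, interstitial, endothelial, skeletal muscle and macrophage markers were called in either mutant against control ovaries. In DKO ovaries 3 germ cell, 1 peritubular, 1 mesonephric tubule and 1 surface epithelium marker were higher and 1 cartilage and 2 erythroid markers lower, and their part in the values of *Lamb2* and *Col20a1* was not tested. Against *Smad4 (Stella)* ovaries, DKO ovaries had 1 Sertoli, 1 peritubular, 1 mesonephric tubule, 1 surface epithelium and 1 germ cell marker higher and 1 fetal Leydig marker lower. The Sertoli marker was *Amh*, above background on 1 DKO array and 0 *Smad4 (Stella)* arrays, with mean levels of -5.2 and -6.11. Its mean was -5.26 in control ovaries and 1.33 in control testes.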

How the data were processed

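Single-colour Agilent arrays, 12 in all, measured RNA of whole gonads at E14.5. The authors deposited the output of Feature Extraction 11.0.1.1 for each array, in which spot intensity is background-corrected array by array, besides a summary holding that intensity to 3 significant digits, unscaled between arrays. The array design is annotated on mm9, and exon annotation of that build was not used here.

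From the processed intensity, log2 minus the 75th percentile of non-control spots was taken per array, outlier spots were left out, and the probes of a gene were averaged. A probe was kept when at least 0.5 of its spots were well above background on each of the 3 arrays of any group, leaving 27311 of 41174 probes and 18666 genes. No spot was saturated. Array names were updated through RefSeq symbols (31793 probes matched), but members were chosen by the name on the array, so *Emid2* and *Gm7455*, 2 collagens under older names, were outside the rule. A group is "at least N-fold" higher where the other was above background on no array, against the lowest signal above background.

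Differences came from limma 3.58.1 under R 4.3.3, in 1 model over 12 arrays with no block and Benjamini-Hochberg adjustment over all genes, and the limma fit was tested on simulated data. The number of arrays limits the precision. Each array is a separate RNA sample. Named were members by class, with full statistics for at most the 15 largest called changes per comparison and direction, and at most 5 called genes per direction of the 4 matrix lists; 13 marker lists served as checks. Members, lists and rules were chosen with earlier results of these data known. The 3 comparisons with control ovaries share those arrays. Promoters came from RefSeq (GRCm38.p6), matched by symbol. Alternatives were normexp (offset 50), quantile normalization, the unscaled summary, the brightest probe, no filter, and only probes well above background on every array. Further alternatives were a 2-fold threshold, slide and replicate blocks, a fit of the compared groups alone, the t-test named in the methods, and the omission of every array in turn. Figures used matplotlib. The values of 1 member are not reported here, and it is left out of the figures, though counts and medians include it.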

Additional observations from a re-analysis of the deposited data

How the results depend on the processing

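For testes against ovaries the number of called members was 27, and between 19 and 33 under the other settings except normexp background correction. Normexp gave 13, while calls over all genes fell from 6339 to 2649. Every called member kept its sign in these settings. Leaving out each array gave 22 to 28. For DKO against control ovaries, 2 members were called, with the count over all genes in brackets (2735). It was 0 with normexp (901), 0 with the unscaled deposited table (986) and 1 with a 2-fold threshold (1348). It was 5 with slide as a block (2928) and 0 by the methods' t-test after Benjamini-Hochberg adjustment (1080). Leaving out each array gave 2 to 4. For DKO against *Smad4 (Stella)* ovaries, 1 was called, and 0 with normexp, 0 with the unscaled table, 0 with slide as a block and 0 by that t-test after adjustment, while leaving out each array gave 1 to 2. For *Smad4 (Stella)* against control ovaries 0 were called, and 1 by the t-test without adjustment. *Col20a1* in DKO ovaries reversed to 0.12 with normexp. The cause was not tested.

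The replicate numbers share no source in the labels, and same-numbered arrays of different groups did not deviate together (r from -0.182 to 0.154). With the number as a replicate block, the counts were 26, 0, 2 and 1, and *Col9a1* lost its call in testes.

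Some settings moved all genes: normexp shifted the median log2 fold change of all genes to 0.12 in testes, 0.26 in DKO against control ovaries and 0.27 in DKO against *Smad4 (Stella)* ovaries, where members had medians of 0.48, 0.30 and 0.26. The unscaled table shifted it to 0.40 in *Smad4 (Stella)* ovaries, with members at 0.45, to 0.19 in DKO ovaries, with members at 0.27, and to -0.23 between the mutants, with members at -0.22. Without the filter it was -0.12 in testes and -0.16 in *Smad4 (Stella)* ovaries, with members at 0.63 and -0.03. Slide as a block moved the members more than all genes: members had medians of 1.11 in testes, -0.46 in *Smad4 (Stella)* ovaries, -0.17 in DKO ovaries and 0.24 between the mutants, beside 0.07, -0.04, -0.04 and 0.04 over all genes. Signal near background limits *Col4a3*, *Col9a1*, *Col24a1*, *Col25a1*, *Lamb3* and *Lamc3*.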
